A study of Homo sapiens with 12 samples.

Results

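The genes described here were 10 receptor tyrosine kinases that have been studied as drug targets in gastric cancer, namely EGFR, ERBB2, ERBB3, ERBB4, MET, FGFR1, FGFR2, FGFR3, FGFR4 and EPHA2. They were chosen by name, and each of the 10 matched 1 row by its Ensembl identifier among the 20345 rows of the expression table. The values are FPKM, that is sequenced fragments scaled to the length of the transcript and to the mapped total of the library, so levels can be set side by side between genes. Of the 10 receptors, 6 could be tested, because their mean across the 12 libraries reached 1 FPKM, a filter that left 11225 genes. EGFR, ERBB3, ERBB4 and FGFR1 stayed below that limit and were tested only in a fit without it.

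The study asked what GLUP, a cyclic peptide made to bind the transcription factor TEAD4 and bring its molecules together, does to HGC-27 cells. HGC-27 is an established human gastric cancer cell line of undifferentiated origin. RNA was sequenced from 12 libraries in 4 groups of 3. WT untreated cells carried no stated edit and received no peptide, and WT with GLUP were the same cells given the peptide. TEAD4KO untreated and TEAD4KO with GLUP were HGC-27 cells labelled as a TEAD4 knockout, without and with the peptide. The 4 groups shared the line and the culture medium. The labels give no dose or duration, and the study's text names different treatment times in different places. How many clones the knockout cells came from was not given in the sources used here. The study's methods speak of biological replicates for this RNA, but the labels do not say which libraries of a group came from separate cultures. Each p-value measures the spread between these libraries, part of which may be technical.

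Receptor tyrosine kinases are single-pass membrane proteins that pair when a ligand binds outside the cell and then phosphorylate each other on tyrosines inside it. Adaptors such as GRB2 and FRS2 read those marks and pass the signal to the RAS-ERK and PI3K-AKT cascades, and attenuators such as the Sprouty proteins and the ubiquitin ligase CBL end it. In gastric tumours ERBB2, FGFR2, MET and EGFR are known for gene amplification, and EPHA2 answers ephrin-A ligands on neighbouring cells.

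TEAD4, the gene named by the genotype label, lay between 22.9 and 25.8 FPKM in WT libraries and between 26.02 and 30.1 FPKM in libraries labelled TEAD4KO, where it was higher over both treatments (log2 fold change 0.20 ± 0.04, SE; limma, Benjamini-Hochberg adjusted p = 0.00752). The transcript was thus not lowered, which does not settle whether TEAD4 protein was lost, because these data hold no protein values. These are therefore called libraries labelled TEAD4KO, and every genotype direction below rests on that label. On the first principal component (39.7% of the variance) WT libraries lay from -16.2 to -3.71 and 4 libraries labelled TEAD4KO lay at 9.91 or above. The remaining ones stood apart from those 4 and lay nearer to WT. GLUP replicate 16, at -5.26, fell within the WT range, and untreated replicate 1, at -0.962, lay just outside it. Markers of gastric epithelium were nearly absent. None of 10 gastric lineage markers reached a mean of 1 FPKM (summed level 0.150 to 0.625 FPKM, 4 of them listed at 0 in all libraries), against 4 of 10 epithelial markers (11.2 to 19.2 FPKM) and 7 of 8 mesenchymal markers (1450 to 1932 FPKM). Of 13 measured markers of other cell types 5 reached it (summed level 544 to 732 FPKM), led by the collagens COL3A1 and COL1A1, while CD3E, CDH5 and HBB were listed at 0 in every library.

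Promoters are shown because the treatment was aimed at a DNA-binding factor. Those of FGFR2 and FGFR3 were taken because these had the largest negative fold changes with GLUP among the tested receptors. That of EPHA2, which had no such change, is shown beside them. RefSeq windows on GRCh38.p14 covering the 250 bases before a start site were found for 8 of the 10 receptors, 14 windows in all. Each was searched on both strands for the TEAD core CATTCC, which reads GGAATG on the other strand, for the GC box GGGCGG, which reads CCGCCC there, and for the AP-1 site TGANTCA. The TEAD core can share end letters with either of the others, which no match printed here did. Capitals mark matches, and the sequences run 5′ to 3′ on the strand of the gene.
EPHA2, chr1:16156070-16156319, minus strand: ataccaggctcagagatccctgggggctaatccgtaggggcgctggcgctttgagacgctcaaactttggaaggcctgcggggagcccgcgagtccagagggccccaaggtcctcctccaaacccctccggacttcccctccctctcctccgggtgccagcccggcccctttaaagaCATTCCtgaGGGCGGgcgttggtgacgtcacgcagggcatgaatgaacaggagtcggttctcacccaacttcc
FGFR2, chr10:121598445-121598694, minus strand: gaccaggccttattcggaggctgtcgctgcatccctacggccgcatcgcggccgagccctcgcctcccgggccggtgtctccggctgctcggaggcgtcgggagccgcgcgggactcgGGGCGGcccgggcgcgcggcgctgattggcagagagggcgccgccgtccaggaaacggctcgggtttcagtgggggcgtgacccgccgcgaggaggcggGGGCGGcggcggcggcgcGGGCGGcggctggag
FGFR3, chr4:1793043-1793292, plus strand: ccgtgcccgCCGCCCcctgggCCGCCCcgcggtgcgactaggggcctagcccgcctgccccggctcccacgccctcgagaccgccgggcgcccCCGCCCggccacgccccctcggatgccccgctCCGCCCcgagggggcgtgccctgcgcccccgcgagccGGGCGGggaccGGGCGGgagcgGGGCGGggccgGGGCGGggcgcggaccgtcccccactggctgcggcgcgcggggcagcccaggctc
The EPHA2 window held a TEAD core 73 bases before the start and a GC box 64 bases before it. Among the most upstream windows of the 8 receptors it was the only one with that core, and the remaining windows are not printed. The FGFR2 window, the most upstream of its 5, held no TEAD core and 3 GC boxes, and the FGFR3 window held 8 GC boxes in sequence of 86.8% G and C. Across the receptors 4 windows of 3 genes held the TEAD core, 1 for EPHA2, 1 of those for EGFR and 2 of the 5 for FGFR2. The core stood in 11.9% of all 35116 windows in the table and the GC box in 42.6%. A match describes letters in a window and is neither a site nor a cause.

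On GRCh37, ERBB2 spans chromosome 17 from 37844167 to 37886679 on the plus strand, FGFR3 chromosome 4 from 1795020 to 1810599 (plus), EPHA2 chromosome 1 from 16450832 to 16482564 (minus), FGFR4 chromosome 5 from 176513906 to 176525145 (plus), FGFR2 chromosome 10 from 123237846 to 123357972 (minus) and MET chromosome 7 from 116312250 to 116438431 (plus), each a protein-coding gene with its exons and untranslated ends inside these bounds. In every library 6 receptors were expressed at several FPKM and 4 were below 1 FPKM. ERBB2, the ErbB receptor without a known ligand, was highest at a mean of 18.0 FPKM over the 12 libraries (14.4 to 21.8). FGFR3 followed at 15.8 FPKM (12.6 to 19.8), EPHA2 at 15.1 FPKM (13.4 to 17.6) and FGFR4 at 14.9 FPKM (12.9 to 18.3), and these neighbours overlapped. FGFR2, at 8.76 FPKM (6.76 to 11.6), was below FGFR4 in 12 of 12 libraries, and MET, the receptor for hepatocyte growth factor, was lower again in 12 of 12 at 4.99 FPKM (4.63 to 5.44). MET was also the steadiest, its highest library standing 1.17 times above its lowest, against 1.72 for FGFR2.

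**Figure D1:**
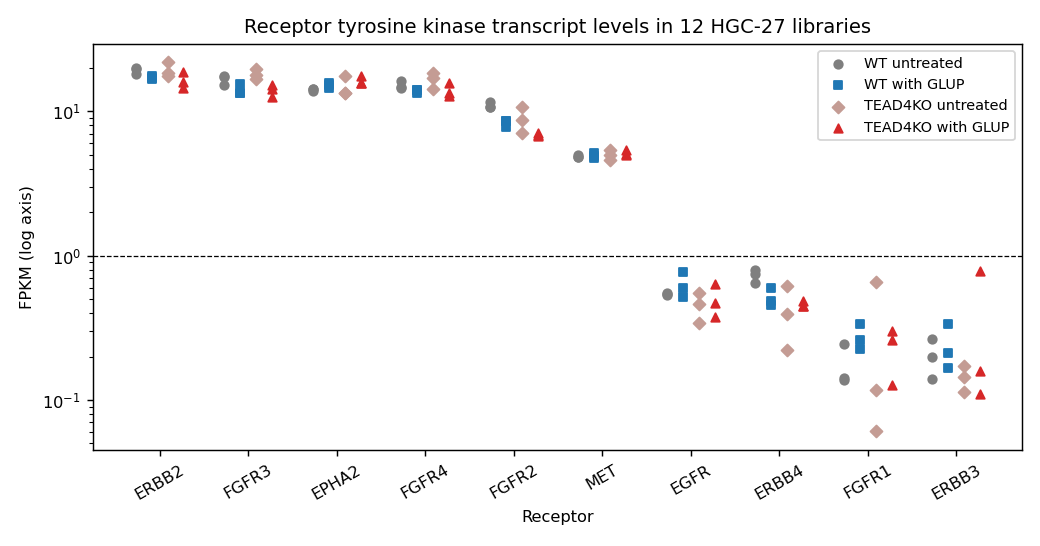
Levels of the 10 receptors in the 12 libraries, in FPKM on a log axis, with 1 point per library and a dashed line at the 1 FPKM limit for testing. ERBB2, FGFR3, EPHA2, FGFR4, FGFR2 and MET lie between 4.63 and 21.8 FPKM and the other receptors between 0.0606 and 0.794 FPKM.

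The other ErbB receptors and FGFR1 were low, with means above those of 36.5 to 41.0% of all rows. EGFR, the receptor for EGF, was at a mean of 0.531 FPKM (0.342 to 0.770) and ERBB4, a neuregulin receptor, at 0.529 FPKM (0.224 to 0.794). ERBB3, the kinase-poor partner of ERBB2, was at 0.234 FPKM and FGFR1 at 0.239 FPKM. Their highest values stood alone, 0.790 FPKM for ERBB3 in TEAD4KO GLUP replicate 14 and 0.652 FPKM for FGFR1 in TEAD4KO untreated replicate 1, while the other 11 libraries stayed at or below 0.336 and 0.339 FPKM. ERBB2 was therefore the only ErbB receptor above 1 FPKM. Among 58 receptor tyrosine kinases ranked by mean FPKM, ERBB2 was 4th, FGFR3 6th, EPHA2 7th, FGFR4 8th, FGFR2 14th and MET 18th.

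The first comparison asked what GLUP changed in WT cells. No receptor passed an adjusted p under 0.05, where 1 gene of all those tested did (0.00891%) while an unadjusted p under 0.05 was reached by 385 genes. The GLUP libraries had the lower mean for 4 of 6 tested receptors, with a median log2 fold change of -0.14 against 0.0088 over all tested genes.

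FGFR2, a receptor for fibroblast growth factors, stood at 10.7, 11.6 and 10.7 FPKM in the WT untreated libraries, and the GLUP libraries held 8.54, 8.59 and 7.83 FPKM. The groups did not overlap. The means were 10.97 ± 0.552 and 8.32 ± 0.421 FPKM (SD, n = 3), 24.2% lower with GLUP, and the log2 fold change of FPKM + 1 was -0.36 ± 0.11 (SE, 95% interval -0.59 to -0.13; limma adjusted p = 0.881, unadjusted p = 0.00502, rank 64 of 11225). FGFR2 passed only with array weights (adjusted p = 0.0236), and over all alternatives its adjusted p ran from 0.0236 to 1.

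Untreated WT libraries held 17.7, 15.3 and 17.4 FPKM of FGFR3, a further FGF receptor, and those given GLUP 13.4, 13.5 and 15.5 FPKM. Replicate 16 with GLUP lay above untreated replicate 2, so the groups overlapped (log2 fold change -0.24 ± 0.09, SE; limma adjusted p = 0.999). For FGFR4, the receptor that serves FGF19 in the liver, the 3 untreated values were 16.2, 14.8 and 14.4 FPKM and the 3 GLUP values 13.4, 14.05 and 14.2 FPKM. Its groups did not overlap, though by a small margin (log2 fold change -0.12 ± 0.09, 95% interval -0.32 to 0.086).

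ERBB2 measured 20.0, 18.2 and 19.7 FPKM without the peptide and 17.0, 16.8 and 17.5 FPKM with it, again without overlap (log2 fold change -0.16 ± 0.09, SE; limma adjusted p = 0.999). EPHA2 lay on the other side, from 14.4, 14.3 and 13.8 FPKM without the peptide to 15.3, 15.8 and 14.6 FPKM with it, and did not overlap either (log2 fold change 0.09 ± 0.09). MET, at 4.98, 4.79 and 4.82 against 5.14, 4.75 and 4.94 FPKM, overlapped (log2 fold change 0.02 ± 0.08, 95% interval -0.15 to 0.19). Non-overlap in the lower direction held for 3 of 6 receptors against 7.16% of all tested genes, and in the higher direction for 1 of 6 against 10.2%.

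**Figure D2:**
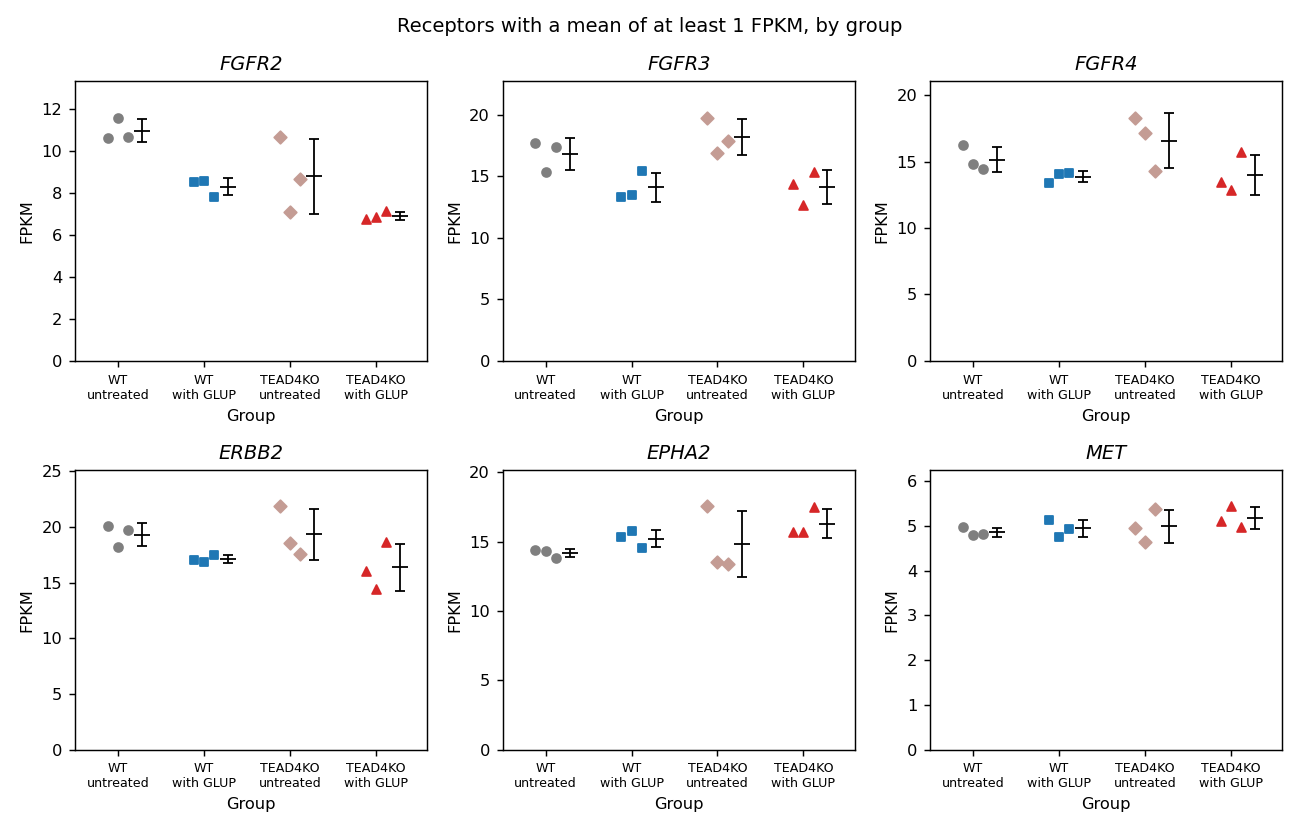
FPKM of the 6 tested receptors in each library by group, with axes from 0. Bars show the mean ± SD of 3 libraries. FGFR2 has means of 10.97 FPKM in WT untreated, 8.32 in WT with GLUP, 8.82 in TEAD4KO untreated and 6.92 in TEAD4KO with GLUP. MET stays between 4.63 and 5.44 FPKM.

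In libraries labelled TEAD4KO the same receptors lay on the same side of 0, and again none of the 6 passed (5 of all tested genes did, 0.0445%, and 716 had an unadjusted p under 0.05). For FGFR3 the untreated values were 19.8, 16.9 and 17.9 FPKM and the GLUP values 14.4, 12.6 and 15.4 FPKM. Here its groups did not overlap, and the mean was 22.3% lower (18.2 ± 1.46 against 14.1 ± 1.37 FPKM, SD, n = 3). The log2 fold change was -0.34 ± 0.09 (SE, 95% interval -0.54 to -0.15), with an adjusted p of 0.339 and an unadjusted p of 0.00215 by limma.

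FGFR2 ranged more among the untreated libraries, with 10.7, 7.12 and 8.65 FPKM against 6.76, 6.87 and 7.14 FPKM after GLUP, so untreated replicate 2 fell among the GLUP libraries (log2 fold change -0.29 ± 0.11, SE; limma adjusted p = 0.670). It was -0.18 once untreated replicate 1 and GLUP replicate 16 were both left out, an alternative added after seeing the data. ERBB2 measured 21.8, 18.5 and 17.6 FPKM against 16.02, 14.4 and 18.6 FPKM with GLUP, and FGFR4 18.3, 17.1 and 14.3 against 13.4, 12.9 and 15.7 FPKM. Both overlapped because of GLUP replicate 16, and each changed by -0.23 ± 0.09 on the log2 scale (SE), with an adjusted p of 0.750 by limma.

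EPHA2 measured 17.6, 13.5 and 13.4 FPKM against 15.7, 15.7 and 17.5 FPKM with GLUP (log2 fold change 0.14 ± 0.09), and MET 4.96, 4.63 and 5.37 against 5.10, 5.44 and 4.98 FPKM (0.05 ± 0.08). Both overlapped. Leaving out 1 library moved EPHA2 to between 0.076 (without untreated replicate 3) and 0.26 (without untreated replicate 1), ERBB2 to between -0.32 (without GLUP replicate 16) and -0.14 (without untreated replicate 1), FGFR2 to between -0.42 (without untreated replicate 2) and -0.16 (without untreated replicate 1) and MET to between 0.0024 (without untreated replicate 2) and 0.091 (without untreated replicate 3). No receptor was called in these fits. Untreated replicate 1, which stood apart on the first component, was the highest of all 12 libraries for ERBB2, FGFR3, FGFR4 and EPHA2. Non-overlap in the lower direction held for 1 of 6 receptors against 3.98% of all tested genes, and in the higher direction for 0 against 2.85%.

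The test of the difference between genotypes passed for none of the 6 receptors (1 of all tested genes, 0.00891%; 284 with an unadjusted p under 0.05). The interaction was 0.07 ± 0.15 for FGFR2 (95% interval -0.26 to 0.40) and -0.11 ± 0.13 for FGFR3 (-0.38 to 0.17) on the log2 scale, with a limma adjusted p of 0.9998 for each, so differences as large as the effects themselves lie within these intervals.

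With both genotypes fitted together, FGFR3 and FGFR2 were the receptors closest to the threshold. Among all tested genes 29 passed (0.258%; 801 with an unadjusted p under 0.05), and 0 of the 6 receptors did. FGFR3 ranked 57th by p with a log2 fold change of -0.29 ± 0.06 (SE, 95% interval -0.43 to -0.15; limma adjusted p = 0.103) and FGFR2 ranked 64th with -0.33 ± 0.08 (-0.49 to -0.16; adjusted p = 0.145). ERBB2 had -0.20 ± 0.07 (adjusted p = 0.475), FGFR4 -0.17 ± 0.07 (0.565), EPHA2 0.12 ± 0.06 (0.765) and MET 0.03 ± 0.06 (0.954). The median of the 6 was -0.18 against -0.0040 for all tested genes. After a correction of each library for GC content and transcript length both FGF receptors passed, FGFR3 at -0.27 (limma adjusted p = 0.0164) and FGFR2 at -0.35 (0.0261), and FGFR2 passed without TEAD4KO untreated replicate 2 (-0.39, adjusted p = 0.0301). The summed level of the epithelial markers was 13.0 to 13.8 FPKM untreated against 11.2 to 13.0 FPKM with GLUP in WT, and 15.3 to 19.2 against 12.7 to 14.5 FPKM in libraries labelled TEAD4KO. Over both genotypes 3 of the 4 tested were lower (median log2 fold change -0.24) and none passed, and their part in the receptor values was not tested.

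**Figure D3:**
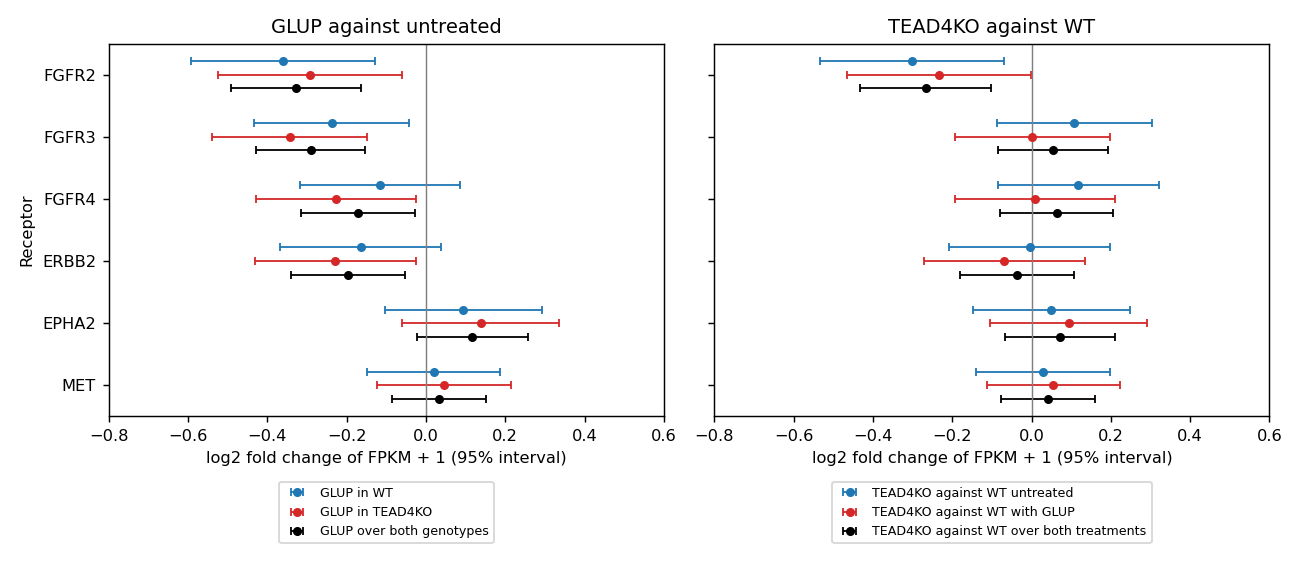
Log2 fold changes of FPKM + 1 with 95% intervals for the 6 tested receptors, for GLUP against untreated on the left and for TEAD4KO against WT on the right. With GLUP the intervals of FGFR2 and FGFR3 lie below 0 in both genotypes. Those of ERBB2 and FGFR4 do so in TEAD4KO and over both genotypes but cross 0 in WT. In the genotype panel those of FGFR2 alone lie below 0.

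The make-up of the receptor transcripts within a library is the same under any scaling that multiplies a whole library by 1 factor. It was not computed under quantile normalization or the GC and length correction, which change ratios between genes. FGFR1 to FGFR4 together made up 52.3%, 51.9% and 51.7% of the summed FPKM of the 10 receptors in WT untreated libraries and 47.7%, 48.5% and 49.6% with GLUP. In libraries labelled TEAD4KO the share was 52.0%, 52.4% and 52.3% untreated and 47.3%, 47.2% and 47.7% with GLUP. All 6 untreated libraries thus lay above all 6 GLUP libraries, with group means of 52.0 ± 0.317 and 48.6 ± 0.913% in WT and 52.2 ± 0.228 and 47.4 ± 0.291% in libraries labelled TEAD4KO (SD, n = 3). The summed level of the FGF receptors was 43.1 ± 1.47 FPKM in WT untreated and 36.6 ± 1.10 FPKM with GLUP, and 43.9 ± 4.81 and 35.3 ± 2.96 FPKM in libraries labelled TEAD4KO. These sums were formed from named receptors and are given as a description, with no test.

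The 10 receptors together made up 28.7 ± 0.130% of the summed FPKM of 58 receptor tyrosine kinases in WT untreated libraries and 25.8 ± 0.120% with GLUP, and 29.7 ± 1.20% and 27.0 ± 0.769% in libraries labelled TEAD4KO (SD, n = 3). The lowest untreated library stood at 28.3% and the highest GLUP library at 27.9%. Of the 48 other receptor tyrosine kinases 22 were tested, and with both genotypes together their median log2 fold change was -0.0037, with 11 higher and 11 lower.

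**Figure D4:**
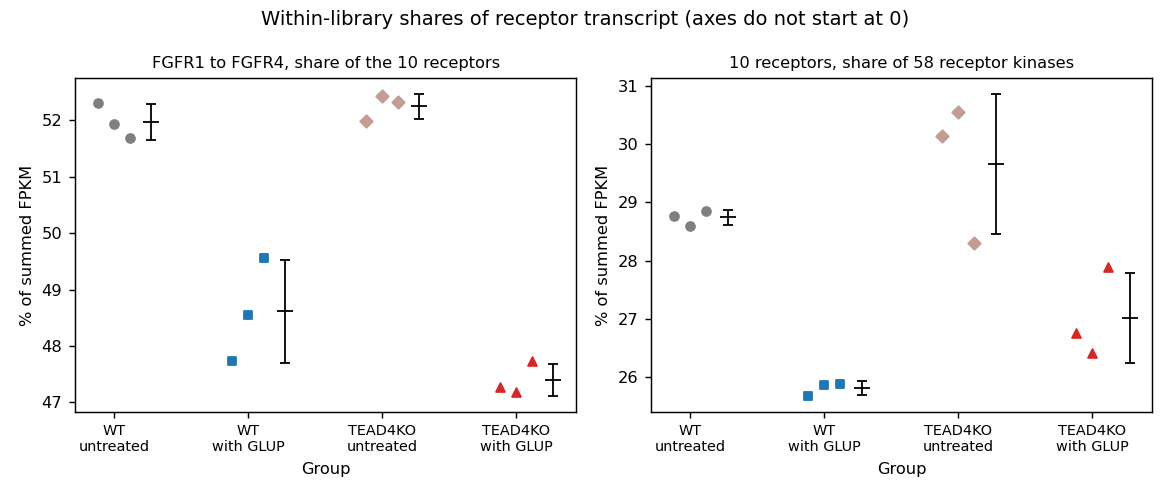
Share of FGFR1 to FGFR4 in the summed FPKM of the 10 receptors (left) and of the 10 receptors in that of 58 receptor tyrosine kinases (right), with 1 point per library and bars for the mean ± SD of 3. The axes do not start at 0. On the left the untreated libraries lie from 51.7 to 52.4% and the GLUP libraries from 47.2 to 49.6%.

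Libraries labelled TEAD4KO were then compared with WT. In untreated cells none of the 6 receptors passed (5.42% of all tested genes did) and with GLUP none did either (5.84%). The log2 fold change of FGFR2 was -0.30 ± 0.11 (SE) untreated and -0.23 ± 0.11 with GLUP, with limma adjusted p of 0.121 and 0.208. With GLUP its groups did not overlap, the highest TEAD4KO library at 7.14 FPKM and the lowest WT library at 7.83 FPKM, as did 12.9% of all tested genes in that direction. Untreated they overlapped through replicate 1 labelled TEAD4KO at 10.7 FPKM, and without it the difference passed (-0.43, limma adjusted p = 0.0141). Without TEAD4KO untreated replicate 2 it was -0.17 instead (adjusted p = 0.373). Of 12 fits lacking 1 library each, it was called in 1.

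Over both treatments FGFR2 was the 1 receptor of 6 that passed, lower in libraries labelled TEAD4KO, where 20% of all tested genes passed and 5.67% were lower. Its log2 fold change was -0.27 ± 0.08 (SE, 95% interval -0.43 to -0.10; limma adjusted p = 0.0260). Leaving out both libraries that stood apart gave -0.34 (adjusted p = 0.00111). Of the libraries labelled TEAD4KO these lay nearest to WT on the first component. Their removal can by itself widen the difference, so the smaller p is no support for the call. The call was lost, with little change in size, without WT untreated replicate 2 or 3 (adjusted p = 0.0620 and 0.0514), WT GLUP replicate 14 or 15 (0.0599 and 0.0585) or TEAD4KO GLUP replicate 14 or 15 (0.0596 and 0.0508). After GC and length correction it was -0.17 (adjusted p = 0.0784).

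How many genes lay on either side depended on the scaling in the comparison TEAD4KO against WT over both treatments. In the values as deposited 1611 genes were higher and 636 lower, under median-ratio scaling 1340 and 994, under quantile normalization 1259 and 1248, and after rescaling each library to TPM, so that all libraries have one total, 745 and 2230. That last scaling moved the median of all genes to -0.098, and FGFR2 stood at -0.39 (limma adjusted p = 0.00991). FGFR2 was lower and called under all 3 of these scalings.

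The other tested receptors differed little by genotype. Over both treatments ERBB2 had a log2 fold change of -0.04 ± 0.07, MET 0.04 ± 0.06, FGFR3 0.05 ± 0.06, FGFR4 0.06 ± 0.07 and EPHA2 0.07 ± 0.06 (SE, limma adjusted p from 0.455 to 0.726). Their 95% intervals all lay between -0.18 (ERBB2) and 0.21 (EPHA2), and the sign of each turned under at least 1 alternative. ERBB4, tested without the filter, was at 0.646, 0.794 and 0.748 FPKM in WT untreated and at 0.612, 0.224 and 0.396 FPKM in untreated libraries labelled TEAD4KO, without overlap, as 7.47% of the genes past the filter were in that direction (log2 fold change -0.30 ± 0.09, SE; limma adjusted p = 0.108). It was also lower with GLUP in WT, at 0.486, 0.601 and 0.458 FPKM (-0.19 ± 0.09, adjusted p = 1.000). EGFR, ERBB3 and FGFR1 overlapped in each of the 4 comparisons between groups, and none of the low receptors passed in the fit without the filter, the one in which they were tested.

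Several receptors varied together from library to library. Across the 12 libraries Pearson's r of log2(FPKM + 1) was 0.87 between ERBB2 and FGFR3, 0.85 between ERBB2 and FGFR4 and 0.79 between FGFR3 and FGFR4. Within groups the values were 0.82, 0.84 and 0.55. EPHA2 and FGFR2 had r of -0.18 over all libraries and 0.83 within groups. In TEAD4KO untreated both were highest in replicate 1 (17.6 and 10.7 FPKM), and its part in this r was not tested. MET and FGFR4 went the other way, with r of -0.50 over all libraries and -0.61 within groups. All of these share their libraries and the scaling of each library, and are given as a description.

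The genes most like each tested receptor over the 12 libraries were named by r. They were EIF3J (0.98) and OGDH (0.92) for FGFR2, DISP1 (0.89) and AJUBA (0.88) for FGFR3, TBKBP1 (0.96) and EXOSC7 (0.93) for FGFR4, PBX4 (0.97) and MROH6 (0.92) for ERBB2, BET1L (0.93) and KCNMA1 (0.90) for EPHA2, and TM9SF3 (0.92) and AQR (0.90) for MET.

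Ligands for these receptors were scarce except for the ephrins. Of 11 ErbB ligands 3 reached 1 FPKM, NRG4 at 2.74, HBEGF at 2.02 and NRG1 at 1.22 FPKM on average, and the receptors that bind neuregulins directly, ERBB3 and ERBB4, were the low ones. NRG1 was the 1 ErbB ligand of 3 tested that passed, higher in libraries labelled TEAD4KO over both treatments. Its log2 fold change was 0.49 ± 0.14 (SE, limma adjusted p = 0.0257). Its means were 0.810 and 0.829 FPKM in the WT groups and 1.61 FPKM in both groups labelled TEAD4KO. NRG1 thus met the 1 FPKM filter only through the groups where it was high, and its call cannot be read apart from that filter. HGF, the MET ligand, was at 0.0937 to 0.204 FPKM, and 2 of the 8 genes of its list were tested, the MET partner CD44 at 59.3 FPKM and PLXNB1 at 4.03 FPKM, of which neither passed. FGF21 was the only FGF at 1 FPKM. All 5 ephrin-A ligands of EPHA2 were tested, with EFNA4 at 10.4 and EFNA1 at 8.80 FPKM. In the mean of both treatments EFNA3 (0.26) and EFNA1 (0.24) were higher and EFNA5 (-0.22) lower in libraries labelled TEAD4KO (limma adjusted p from 0.0427 to 0.0469). EFNA3 differed mainly untreated, at 6.63 ± 0.684 against 4.39 ± 0.553 FPKM in WT (SD, log2 fold change 0.50, limma adjusted p = 0.0274). With GLUP EFNA3 was at 4.89 ± 0.826 against 4.78 ± 0.386 FPKM, and the groups overlapped. Over both treatments 3 of 5 ephrin-A ligands and 1 of 3 ErbB ligands were called. Of all tested genes 20% were, 14.4% higher and 5.67% lower. The ErbB count rests on NRG1 and so on the filter. In that comparison NRG1 held in 7 of 12 fits that left out 1 library, EFNA3 and EFNA1 in 3 and EFNA5 in 2. Over all alternatives EFNA3 came down to 0.076 and EFNA1 to 0.11, with limma adjusted p up to 0.502 and 0.400.

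Heparan sulphate proteoglycans, which hold FGFs at their receptors, lay on the other side of 0 from FGFR2 in the genotype comparison. Of 25 FGF ligands and co-receptors 5 were tested, and over both treatments 5 of 5 were higher in libraries labelled TEAD4KO, with a median log2 fold change of 0.27 against 0.0080 for all tested genes and 14.4% of all tested genes higher. SDC1 rose by 0.26 ± 0.05, SDC4 by 0.27 ± 0.06, GPC1 by 0.28 ± 0.06, the decoy receptor FGFRL1 by 0.24 ± 0.06 and FGF21 by 0.28 ± 0.09 (SE, limma adjusted p from 0.00189 to 0.0409). FGF21 met the 1 FPKM filter only through TEAD4KO with GLUP, where its mean was 1.41 FPKM. Its mean was 0.868 FPKM in WT untreated, 0.740 FPKM in WT with GLUP and 0.989 FPKM in TEAD4KO untreated. The count of 5 of 5 is thus tilted by the filter. SDC1 was between 29.1 and 32.2 FPKM in WT libraries and between 34.2 and 38.7 FPKM in libraries labelled TEAD4KO. The calls of SDC1, SDC4, GPC1 and FGFRL1 held in 12 of 12 fits that left out 1 library and that of FGF21 in 3, and over all alternatives their adjusted p reached 0.0303, 0.0519, 0.0819, 0.128 and 0.316. With GLUP none of the 5 passed over both genotypes. In the same genotype comparison 2 of 4 tested epithelial markers were called higher, KRT8 (0.31) and CLDN7 (0.32), both named after their values were seen (limma adjusted p = 0.0451 and 0.0193). Their part in the values of FGFR2 and the co-receptors was not tested.

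With GLUP none of the 19 tested adaptors and none of the 17 tested members of the RAS-ERK and AKT cascade passed over both genotypes, while 2 of 24 tested attenuators rose, against 0.169% of all tested genes. ERRFI1, which binds and inhibits ErbB kinases, was at 15.6, 15.6 and 14.6 FPKM in WT untreated and 20.2, 19.0 and 21.9 FPKM with GLUP, and at 15.99, 13.5 and 18.2 against 19.8, 22.9 and 26.03 FPKM in libraries labelled TEAD4KO. Its groups did not overlap in either genotype. In that direction 10.2% of all tested genes did not overlap in WT and 2.85% in libraries labelled TEAD4KO. The share without overlap in both genotypes at once is not given here. The log2 fold change of ERRFI1 was 0.45 ± 0.08 (SE, limma adjusted p = 0.0321).

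SPRY2, a Sprouty protein that restrains RAS-ERK signalling downstream of FGF receptors, was at 3.59 ± 0.254 FPKM in WT untreated, 5.00 ± 0.109 FPKM with GLUP, 3.997 ± 0.321 FPKM in TEAD4KO untreated and 5.37 ± 0.748 FPKM in TEAD4KO with GLUP (SD, n = 3). Its change over both genotypes was 0.37 ± 0.07 on the log2 scale (SE), with a limma adjusted p of 0.0468. Of the other receptor tyrosine kinases 1 rose with GLUP, PDGFRA (0.30 ± 0.05, limma adjusted p = 0.0349), a platelet-derived growth factor receptor. Over the 12 fits that left out 1 library the log2 fold changes stayed between 0.39 and 0.50 for ERRFI1, 0.32 and 0.40 for SPRY2 and 0.29 and 0.32 for PDGFRA, while most of the calls were lost. Leaving out any 1 WT library, TEAD4KO untreated replicate 2 or TEAD4KO GLUP replicate 15 ended all of them, with a limma adjusted p up to 0.119 for ERRFI1, 0.173 for SPRY2 and 0.139 for PDGFRA, and so did leaving out both libraries that stood apart (0.0577, 0.0759 and 0.0527). SPRY2 was also lost without TEAD4KO untreated replicate 1 (adjusted p = 0.0827) or GLUP replicate 16 (0.0759), and PDGFRA without TEAD4KO GLUP replicate 14 (0.0682).

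**Figure D5:**
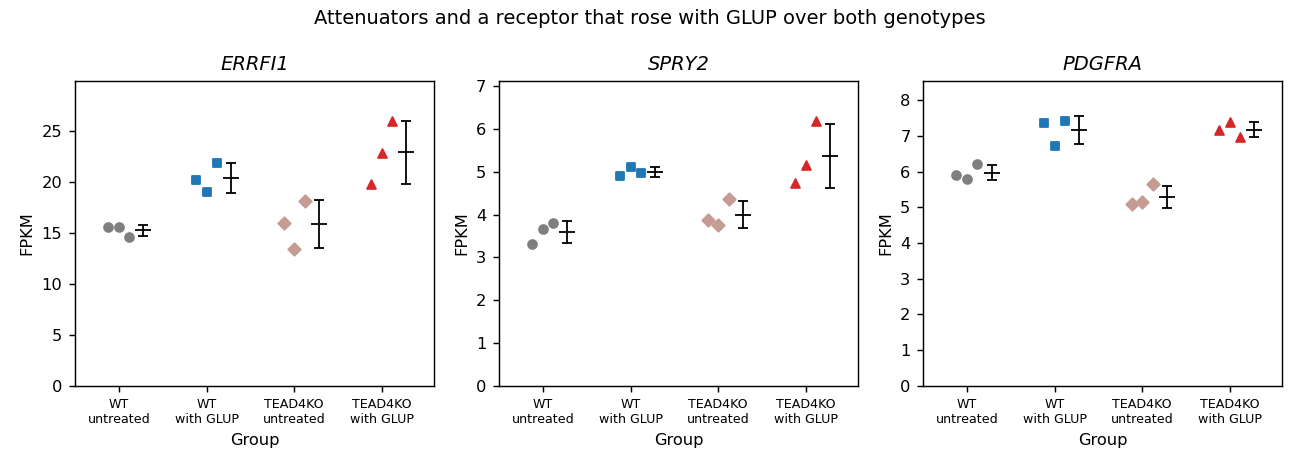
FPKM of ERRFI1, SPRY2 and PDGFRA in each library by group, with axes from 0 and bars for the mean ± SD of 3. In each panel the GLUP libraries lie above the untreated libraries of the same genotype, for ERRFI1 from 19.0 against 15.6 FPKM in WT. Of all tested genes 10.2% do so in WT and 2.85% in libraries labelled TEAD4KO.

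By genotype the relays below the receptors were more often lower than higher. Over both treatments 6 of 19 tested adaptors passed, all lower in libraries labelled TEAD4KO, where 5.67% of all tested genes were lower. Among them SOS1, the exchange factor that loads RAS, fell by 0.37 ± 0.08, and PIK3R1, the regulatory subunit of PI3K, fell by 0.23 ± 0.05 on the log2 scale (SE, limma adjusted p = 0.00679 and 0.00651). Both calls held in 12 of 12 fits that left out 1 library. Among 17 tested members of the RAS-ERK and AKT cascade, those lower included MTOR (-0.21) and NF1 (-0.30), and 2 were higher, HRAS (0.21) and MAP2K2 (0.14). Of 24 attenuators 2 were lower, CBL (-0.36 ± 0.09, SE; limma adjusted p = 0.0104) and LRIG2 (-0.31), and 2 were higher, SPRY1 (0.25) and HGS (0.15). Of 22 other receptor tyrosine kinases 4 were lower, ROR2 (-0.24), INSR (-0.31), IGF1R (-0.36) and EPHB2 (-0.19), and 0 higher. CBL and ROR2 held in 12 of 12 fits that left out 1 library, and the calls of these other genes were lost in at least 1 of them. SOS1, PIK3R1, CBL and ROR2 were called in 26 of 26 alternatives. Other values depended on the processing, coming down to 0.022 for HRAS, 0.028 for MAP2K2 and 0.041 for HGS and up to -0.074 for EPHB2. Their limma adjusted p reached 0.791, 0.677, 0.610 and 0.478 over all alternatives. For the adaptors the median log2 fold change was -0.093, against 0.0080 over all tested genes. Whether the share of rows listed at 0, which was 21.1 to 22.3% in WT libraries and 23.7 to 25.5% in libraries labelled TEAD4KO, bears on these genotype differences was not tested.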

How the data were processed

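RNA-seq of 12 HGC-27 libraries was analysed from 1 table in which the authors deposited FPKM values, 1 column per library and 1 row per Ensembl gene. The submitters' processing notes list HISAT2, Cufflinks, RSEM and hg19, with no role or version. FPKM divides a gene's fragments by its length and its library's mapped total, so abundant genes and GC or length trends shift the others. Totals were 375361 to 423757 FPKM per library. Values were not in steps of whole reads (the most common ratio between libraries under 0.1 FPKM held 0.850% of rows), so depth is unknown and precision comes from the spread between libraries alone. All columns were matched by title, and 0 pairs were identical.

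Values were analysed as log2(FPKM + 1), a scale that understates changes of low genes, for the 11225 rows whose mean across libraries reached 1 FPKM. One 4-group model without covariates was fitted to all libraries with limma 3.58.1 in R 4.3.3 (lmFit, eBayes with trend). P-values were two-sided and Benjamini-Hochberg adjusted over all tested genes in each of 7 comparisons, and a gene was called at an adjusted p under 0.05. A permutation test of 3 against 3 cannot go below 0.1, so none was used. Intervals are 95%. The fit was tested on simulated data.

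The receptors, pathway lists and markers were chosen with earlier results of these data known. Named genes were the 10 receptors, TEAD4, up to 5 called genes per list and comparison by p (for a list with none, the 2 with the highest mean), and the 2 genes with the highest r for each tested receptor. One gene that this rule names is not reported here. Numbers in the titles were used as replicate blocks. For like numbers the correlations of deviations were 0.106, 0.152 and 0.336 with GLUP and -0.0569, 0.203 and -0.0149 untreated. Unlike GLUP numbers ran from -0.245 to 0.134. WT replicate 14 went more with TEAD4KO replicate 15 (0.134) than with TEAD4KO replicate 14. Whether the numbers pair libraries is thus not settled. Gene spans came from GENCODE on GRCh37, which hg19 shares. Promoters came from a RefSeq table on GRCh38.p14. Each fit was repeated with array weights, with eBayes lacking its trend, on the compared groups alone, with rows summed per symbol, with a fold limit of 2, after quantile, median-ratio or TPM scaling, after a GC and length correction (splines, 5 degrees of freedom), with a filter at a mean of 5 FPKM or none (17969 rows), with 0.1 as the pseudocount, with the replicate block, and leaving out each library.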

Additional observations from a re-analysis of the deposited data

How the results depend on the processing

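With GLUP the directions of FGFR2, FGFR3, FGFR4, ERBB2 and EPHA2 were the same under all alternatives run. Depth is unknown, so differences of the low receptors were not detectable here rather than absent. The cause of the changes below was not tested.

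The number of receptors called was 1 in place of 0 for GLUP in WT and for TEAD4KO against WT with GLUP under array weights, where 61 genes in place of 1 and 2487 in place of 656 passed in all. It was 2 for GLUP over both genotypes after GC and length correction (55 genes in place of 29). For TEAD4KO against WT over both treatments it was 0 in place of 1 without a filter (1758 genes), with a fold limit of 2 (6 genes), after GC and length correction (1637 genes) and with the replicate block and that correction together (1838 genes). Leaving out both libraries that stood apart, an alternative added after seeing the data, gave 1 receptor in place of 0, FGFR2, for TEAD4KO against WT untreated (2231 genes in place of 608) and with GLUP (3121 genes), and 4644 genes in place of 2247 over both treatments. Because these libraries lay nearest to WT, leaving them out can by itself widen the genotype differences.

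The replicate block, used for comparisons between genotypes, left the number of receptors called at 0 untreated, 0 with GLUP, 0 for the interaction and 1 over both treatments, where FGFR2 had an adjusted p of 0.0321, and changed no call of a receptor. It moved the number of genes with GLUP from 656 to 1064.

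Leaving out 1 library at a time gave 0 to 1 receptors called for TEAD4KO against WT untreated and over both treatments and for GLUP over both genotypes, and 0 in the other comparisons. Those fits called 11 to 38 genes for GLUP over both genotypes (29 with all libraries), and for TEAD4KO against WT 119 to 1186 untreated (608), 196 to 1952 with GLUP (656) and 1388 to 3320 over both treatments (2247), so the shares of all tested genes called move with single libraries.

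Signs turned for main values up to 0.12 ± 0.09 (SE) in size, that of FGFR4 for TEAD4KO against WT untreated. TPM rescaling, which moved the median of all genes to -0.080 untreated, -0.11 with GLUP and -0.098 over both treatments between genotypes, gave for TEAD4KO against WT, in that order, -0.056, -0.015 and -0.035 for EPHA2 and -0.070, -0.045 and -0.058 for MET, and with GLUP and over both treatments -0.11 and -0.053 for FGFR3 and -0.10 and -0.044 for FGFR4. GC and length correction, alone and with the replicate block, gave for TEAD4KO against WT -0.020 for EPHA2 and -0.032 for FGFR4 untreated, -0.028 for FGFR3 and -0.081 for FGFR4 with GLUP, and -0.0054 for FGFR3 and -0.057 for FGFR4 over both treatments, and alone -0.021 for MET with GLUP in WT. Array weights gave -0.0015 for EPHA2 untreated and -0.028 for FGFR4 with GLUP. Quantile normalization gave -0.0071 for FGFR3 with GLUP and -0.017 for MET with GLUP in WT. Without the 2 libraries that stood apart the values were -0.070 for EPHA2 untreated, -0.057 for FGFR3 and -0.071 for FGFR4 with GLUP, and -0.0039 for FGFR3, -0.012 for FGFR4 and -0.013 for EPHA2 over both treatments.

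Without 1 library the ranges that crossed 0 were, for TEAD4KO against WT untreated, -0.070 to 0.11 for EPHA2, -0.092 to 0.058 for ERBB2 and -0.017 to 0.072 for MET. With GLUP they were -0.16 to 0.013 for ERBB2, -0.057 to 0.074 for FGFR3 and -0.071 to 0.062 for FGFR4, and over both treatments -0.083 to 0.0042 for ERBB2. For the interaction they were -0.018 to 0.16 for EPHA2, -0.16 to 0.023 for ERBB2, -0.061 to 0.20 for FGFR2 and -0.017 to 0.072 for MET, and for GLUP in WT -0.0040 to 0.043 for MET.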
